A study of Drosophila melanogaster with 12 samples.

Results

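Control wing discs were compared with wild-type hindgut and Malpighian tubules across all genes on the array, using 6 of the 12 arrays of the series, 3 for each organ. The arrays were chosen by title. The first group holds wing discs that are titled wt; the series' design text gives the control discs the genotype nub-Gal4, a driver active in the wing-forming region of the disc, with no UAS transgene. The second group holds hindgut and Malpighian tubules of wild-type (WT) larvae, collected together and called hindgut-tubule samples here. No strain is named for either group. The tissues of both came from L3 larvae grown at 25oC on normal food, were dissected into TRIzol, and were profiled as total RNA on Affymetrix Drosophila arrays. The other 6 arrays hold wing discs with nub-Gal4 and UAS-MiT and hindgut-tubule samples of the MiT mutant MiTTZ2/Df(4)TZ; they enter 1 paragraph below. The series asked for genes raised by gain of the transcription factor MiT and lowered by its loss. The contrast of organs joins the control arms of those 2 comparisons, so that organ and genotype (driver against none) cannot be told apart in it. Nothing in the labels states whether the 3 replicates were separate batches of larvae, so the p-values measure the spread between these samples, which may be technical.

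The wing disc is a sac of epithelium that proliferates through larval life and is patterned by selector transcription factors and by Wnt, Dpp, Hedgehog, Notch and EGF signals before it forms the adult wing and notum. Malpighian tubules are the renal organs of the fly. A proton pump in their apical membrane, the V-ATPase, energises the transport of ions, water and organic solutes into urine, and the tubules also detoxify, store pigment precursors and excrete urate. The hindgut takes up ions and water from that urine. In the larva both are made of large cells that no longer divide but replicate their DNA, so a comparison with the disc sets a dividing, unspecialised epithelium beside a specialised transporting one.

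Values are log2 expression after GCRMA, a background correction and normalization of all arrays together, and every difference is wing disc minus hindgut-tubule on that scale. A probe set was tested if it reached a log2 level of 4 on at least 3 of the 6 arrays, which held for 8410 of 18769; another 9814 lay under 4 on all 6 arrays. A group mean under 4 was treated as indistinguishable from background, and a fold against it is given as at least N-fold. A tested gene under 4 on every array of 1 organ passed the filter through the other organ alone, which fixed its direction. The counts of lists below include such genes. Differences were tested with limma across all probe sets, adjusted by Benjamini-Hochberg and called at 0.05 or under, and the adjusted p of each gene below is from that fit (n = 3 arrays per group). The number of arrays limits the precision. Wing disc replicates correlated at 0.989 to 0.990, with a mean SD of a probe set of 0.18. Hindgut-tubule replicates correlated at 0.957 to 0.988, with a mean SD of 0.32. Array 2 of the hindgut-tubule samples stood apart, with 86 probe sets more than 2 log2 units above both other arrays, among them the cuticle genes Lcp3 and Lcp4, and array 3 of the same group was high in immune genes such as AttA (genes named after their values were seen). Wing disc array 3 was the highest for salivary glue genes, and array 1 read several of them above background. Lists that rest on these arrays are given with and without them below.

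The organs differed over most of the genes measured. Of 7657 named genes, 3690 (48.2%) were higher and 2315 (30.2%) lower in control wing discs, and 1652 did not pass the test (78.4% called). A difference of at least 2-fold was passed by 2572 higher (33.6%) and 1683 lower (22%) genes. By probe set the counts were 4070 higher (48.4%) and 2528 lower (30.1%) of 8410. The groups did not overlap for 6304 named genes (82.3%). With so many calls, a call alone says little about a gene, and the sizes and the shares within gene groups are read against these percentages.

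The largest differences were nearer to present and absent than to more and less. The median difference over named genes was 0.35 (0.34 with group means under 4 raised to 4, called floored below). At least 16-fold differences were found for 310 higher and 479 lower genes. Of all named genes, 591 had a mean of at least 4 in wing discs alone, 618 in hindgut-tubule samples alone and 6448 in both. Across probe sets, an array of one organ correlated with an array of the other at 0.456 to 0.469. The genes called higher were more numerous, while more of the large differences were on the hindgut-tubule side. Centring each array on the median of 5372 probe sets bright on all 6 arrays moved every difference by 0.24 towards the hindgut-tubule side, to 3583 higher and 3010 lower probe sets, so differences of that size have no settled direction.

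**Figure D1:**
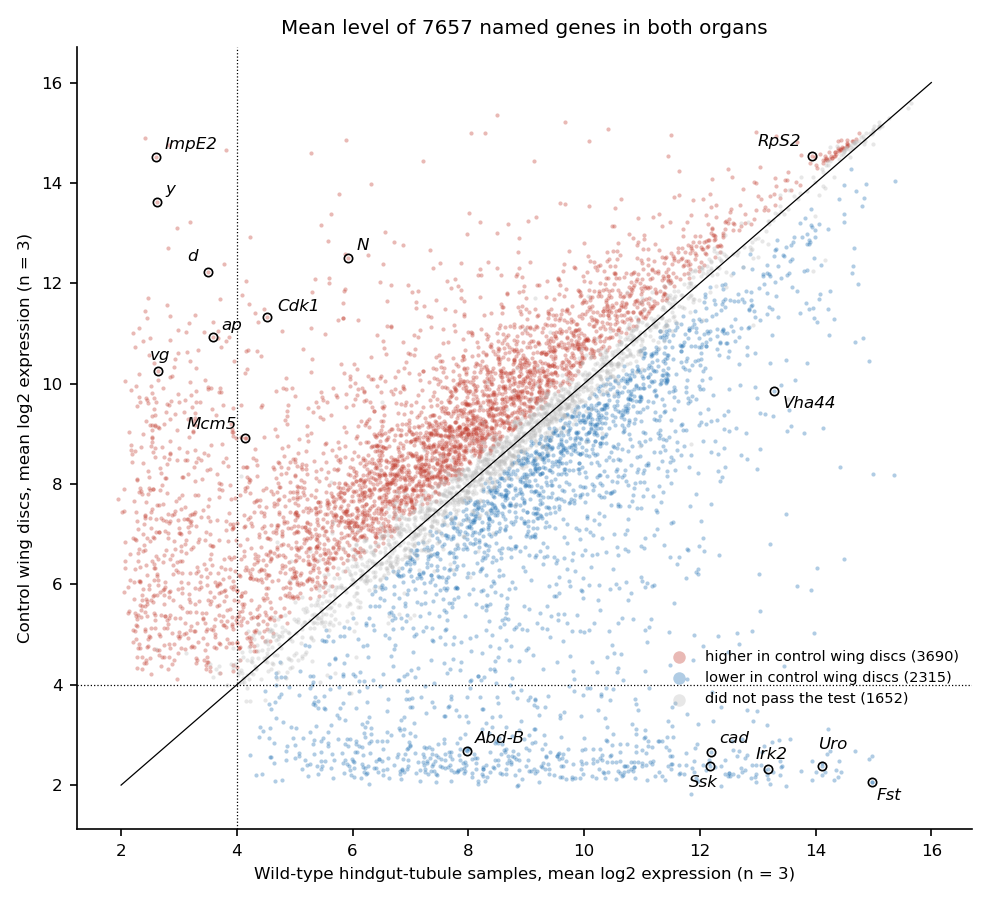
Mean log2 expression of 7657 named genes in hindgut-tubule samples (x axis) and control wing discs (y axis), n = 3 arrays each. The 3690 genes higher in wing discs are red, the 2315 lower ones blue and the 1652 that did not pass the test grey, the diagonal marks equal levels, and dotted lines mark the log2 level of 4. The genes along the left and bottom edges are measured in 1 organ alone, such as vg in wing discs and Uro in hindgut-tubule samples.

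The 15 genes with the largest difference on the wing side were measured at a mean of 12.04 or more in wing discs, and 3 of them encode cuticle proteins. ImpE2, an ecdysone-induced gene of evaginating discs, read 14.50, 14.43 and 14.60 on the wing disc arrays, against 2.74, 2.44 and 2.62 on the hindgut-tubule arrays, and was at least 1459-fold higher (adjusted p = 1.40e-13). The pigmentation gene y (yellow) read 13.74, 13.24 and 13.88 in wing discs, against 2.65, 2.65 and 2.57 in hindgut-tubule samples. It was at least 786-fold higher, and neither gene came near an overlap of the groups. CG14332 and CG33333, genes with no role given here, led the ranking at at least 1914-fold and at least 1723-fold. The myosin-like gene d (dachs), which acts in the Fat pathway of growth and planar polarity, read 12.32, 12.02 and 12.36 in wing discs, against 3.69, 3.50 and 3.32 in hindgut-tubule samples (at least 301-fold). The receptor kinase drl (derailed), a receptor for Wnt proteins in neurons, was 235-fold higher, and nw (narrow), a lectin that shapes the wing, was at least 551-fold higher.

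Several of the same 15 genes were not at background on every hindgut-tubule array. Lcp2, a larval cuticle protein, read 14.60, 14.86 and 14.34 in wing discs, against 2.73, 9.75 and 3.34 in hindgut-tubule samples, so that array 2 alone carried a high level there. It was 641-fold higher (SE of the log2 difference 1.93), and the difference was 9.33 with all arrays and 11.56 without hindgut-tubule array 2. The cuticle protein gene Cpr78E read 14.61, 14.89 and 14.47 in wing discs, against 3.28, 5.54 and 2.62 in hindgut-tubule samples, again highest on array 2. Cpr12A, a further cuticle protein gene, was 413-fold higher, and Spn43Aa, a serine protease inhibitor of the serpin family, at least 415-fold higher. CG13403, CG10570, CG15282 and CG11854 were at least 596-fold, 499.8-fold, at least 336-fold and 258-fold higher. All 15 were called without hindgut-tubule array 2 as well.

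The 15 genes with the largest difference on the hindgut-tubule side were all at background in wing discs, with means of 2.06 to 3.11. Fst (Frost), a gene induced by cold in adult flies, read 2.07, 2.06 and 2.09 in wing discs, against 15.06, 14.80 and 15.07 in hindgut-tubule samples. It was at least 2017-fold lower (adjusted p = 3.72e-14), with no overlap and little spread on either side. Alp7, an alkaline phosphatase, read 2.09, 2.06 and 2.03 in wing discs, against 15.07, 14.92 and 14.93 in hindgut-tubule samples (at least 2010.1-fold). Uro, the urate oxidase that is made in the main segment of the tubule, read 2.25, 2.35 and 2.55 in wing discs, against 13.37, 14.92 and 14.06 in hindgut-tubule samples, and was at least 1108-fold lower. The mucin-related Mur18B was at least 1302-fold lower and the secreted peptide gene IM33 at least 1634-fold lower. The other 10 have CG numbers for names: CG6409, CG9021, CG18473, CG9259, CG11892, CG14292, CG34330, CG7299, CG14963 and CG10514, and their folds were at least 1147 to at least 2001.

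The labelled organs were checked against the transcription factors that define them. In bulk tissue a lower level can mean fewer cells of a type or less RNA per cell, and these cannot be told apart here. Of 38 measured genes of a wing selector and patterning list, 34 were higher in wing discs, 2 were lower and 2 did not pass, with a median difference of 4.02 (3.24 floored). The wing selector vg (vestigial) read 10.50, 10.16 and 10.12 in wing discs, against 2.71, 2.68 and 2.54 in hindgut-tubule samples, and ap (apterous), the selector of dorsal identity, 11.05, 10.83 and 10.93 against 3.74, 3.85 and 3.17. They were at least 76.7-fold higher (adjusted p = 4.38e-12) and at least 123-fold higher (adjusted p = 3.62e-11), with no overlap. Members under 4 on every hindgut-tubule array, such as vg and ap, passed the filter through wing discs alone. That fixed their direction, so the count of the list is no independent check of the labels. The partner of vg in DNA binding, sd (scalloped), differed less: it read 11.46, 11.21 and 11.40 in wing discs, against 9.52, 9.54 and 9.46 in hindgut-tubule samples, and was 3.60-fold higher. The POU gene nub (nubbin), whose Gal4 line drives the transgene of the series, read 11.92, 11.73 and 11.92 in wing discs and 8.01, 6.68 and 6.70 in hindgut-tubule samples. Array 1 was the highest of the hindgut-tubule arrays for nub, and the gene was 26.5-fold higher.

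Secreted and cell surface regulators of wing growth belonged to the same group. The atypical cadherin gene ds (dachsous) was at least 98.1-fold higher and fj (four-jointed), the Golgi kinase that modifies ds and its partner ft, at least 119.7-fold higher; bi (optomotor-blind), a T-box target of Dpp, was 79.6-fold higher. The exceptions were Ptx1, a homeobox gene, which was 30.4-fold lower at 6.08 ± 0.11 in wing discs and 11.00 ± 0.32 in hindgut-tubule samples (SD), and Doc1, a T-box gene (2.46-fold lower). The homeobox gene tup and the T-box gene Doc2 did not pass (differences of 0.14 and 0.011).

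The Hox genes separated the organs by their place along the body. Antp (Antennapedia), the thoracic Hox gene, read 9.50, 9.53 and 9.67 in wing discs, against 3.34, 4.14 and 3.80 in hindgut-tubule samples, and was at least 47.5-fold higher. Scr, the Hox gene of the first thoracic segment, was at least 24.5-fold higher. Ubx, which marks the haltere disc and, in the wing disc, its outer membrane, read 6.23, 5.96 and 6.05 in wing discs and 2.23, 2.19 and 2.49 in hindgut-tubule samples (at least 4.22-fold higher). On the posterior side Abd-B (Abdominal-B) read 2.75, 2.60 and 2.68 in wing discs, against 7.96, 8.05 and 7.91 in hindgut-tubule samples, and cad (caudal), the homeobox gene of the hindgut, 2.77, 2.61 and 2.61 against 12.61, 11.62 and 12.33. They were at least 15.7-fold lower and at least 291-fold lower, and neither exceeded 3 on a wing disc array. The gene abd-A was at or near background in both organs (3.39, 3.59 and 3.64 in wing discs, 3.46, 4.26 and 3.70 in hindgut-tubule samples) and was not tested. Among cofactors, hth (homothorax) was 6.48-fold higher and tsh (teashirt), a zinc finger gene of the trunk, 16.3-fold higher.

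Of 20 measured transcription factors known from the hindgut or tubule, 6 were higher in wing discs, 10 lower and 4 did not pass. Over all named genes 48.2% were higher and 30.2% lower. The hindgut determinant byn (brachyenteron) read 2.48, 2.46 and 2.48 in wing discs, against 7.82, 7.30 and 7.13 in hindgut-tubule samples (at least 10.7-fold lower). The forkhead gene fkh was at least 84.4-fold lower, sug (sugarbabe) at least 20.7-fold lower and GATAe, the GATA factor of the endoderm and tubule, lower with a difference of -6.16. The tubule gene ct (cut), which the disc also uses at its margin, read 4.96, 4.72 and 5.30 in wing discs, against 6.61, 6.56 and 6.50 in hindgut-tubule samples, and was 2.97-fold lower. Besides tsh and hth, the zinc finger gene bowl (6.93-fold) and dac, a nuclear cofactor of limb development (6.59-fold), were higher in wing discs. The genes srp, drm, NK7.1 and tup did not pass, with differences of -0.11, -0.11, 0.035 and 0.14. The gap gene Kr (Kruppel), which is needed to form tubules in the embryo, passed 4 on 1 array only (3.01, 2.94 and 2.98 in wing discs, 3.49, 5.33 and 2.91 in hindgut-tubule samples) and was not tested. Mitf, the gene the series manipulates on other arrays, read 7.93, 7.91 and 8.15 in wing discs and 7.05, 6.55 and 6.16 in hindgut-tubule samples, and was 2.65-fold higher (adjusted p = 7.15e-05).

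**Figure D2:**
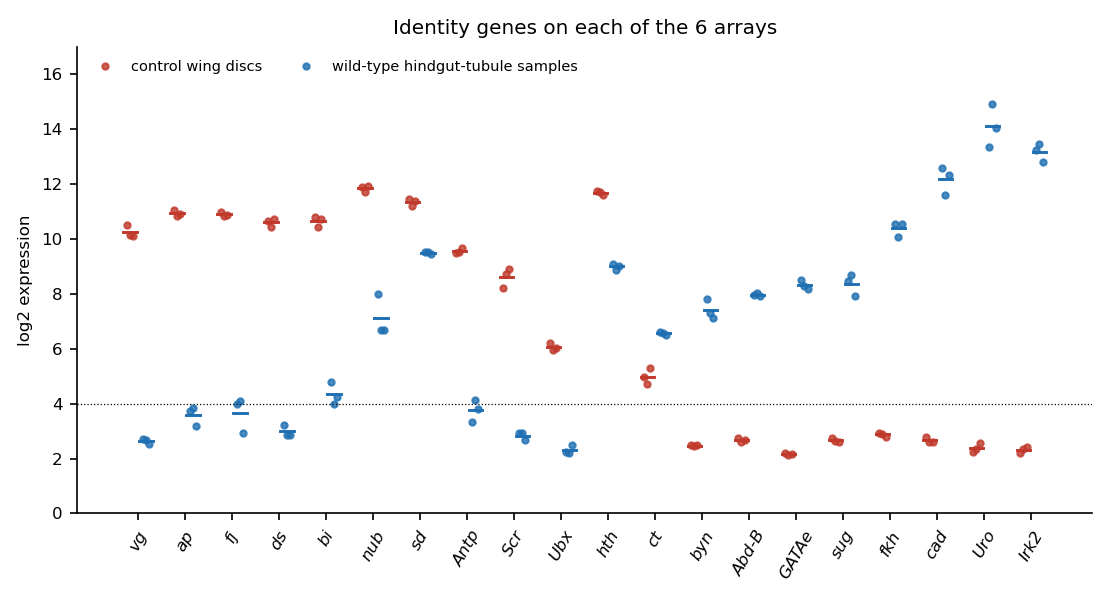
Log2 expression (y axis) of 20 genes that mark wing disc or hindgut and tubule, 1 dot per array, red for control wing discs and blue for hindgut-tubule samples, with a bar at the mean of 3 arrays and a dotted line at 4. From vg to hth the wing disc arrays lie above the hindgut-tubule arrays, and from ct to Irk2 they lie below. None of the 20 genes shows an overlap, and 82.3% of all named genes show none.

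Signalling pathways of the disc were tested gene by gene. All 10 measured Hedgehog pathway genes were higher in wing discs, 14 of 15 of the Dpp and BMP pathway, 16 of 19 of the Wnt pathway, 15 of 18 of the EGF receptor pathway and 18 of 23 of the Notch pathway, against 48.2% of all genes. The medians of the measured members were 2.87, 1.37, 1.81, 1.78 and 4.72 (4.23 floored).

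Ligands and receptors were among the larger differences. The receptor gene N (Notch) read 12.66, 12.38 and 12.47 in wing discs, against 6.01, 5.96 and 5.79 in hindgut-tubule samples, and was 95.8-fold higher (adjusted p = 5.61e-09). Its target genes in the Enhancer of split and Bearded families followed the same direction: E(spl)malpha-BFM was at least 206-fold higher, Tom at least 174-fold higher and E(spl)m3-HLH 166-fold higher. The 5 Notch pathway genes that did not pass were kuz, which cleaves the receptor, neur, a ligase for its ligands, and the gamma-secretase subunits Psn, aph-1 and pen-2 (differences of 0.41, 0.11, -0.12, 0.12 and 0.25). The fourth subunit of that protease, Nct, passed at 1.62-fold higher, a gene named after its value was seen, and lost the call without hindgut-tubule array 2 (adjusted p = 0.0518). In the Hedgehog pathway the co-receptor genes ihog and boi were 44.5-fold and 33.0-fold higher, the kinesin-like cos 19.0-fold and the ligand hh 10.1-fold. The receptor fz (frizzled) was 21.9-fold higher, the feedback inhibitor nkd 15.1-fold higher, and the ligands Wnt2 and Wnt5 at least 11.1-fold and at least 9.88-fold higher. The kinase sgg, which degrades the Wnt effector arm, was the 1 Wnt gene lower in wing discs (1.47-fold), although a dimmer probe set of it was higher by 1.96. Its call ended without wing disc array 2 or hindgut-tubule array 1 (adjusted p up to 0.0846), and the mean of its probe sets was called higher. The genes por and Apc did not pass (0.22 and 0.14).

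The ligand dpp read 9.69, 9.54 and 9.99 in wing discs, against 5.39, 5.72 and 6.06 in hindgut-tubule samples, and was 16.2-fold higher. The protease tok was 15.7-fold higher, and the inhibitor Dad, itself a Dpp target, 4.38-fold higher; the heparan sulfate proteoglycan dally was 4.08-fold higher, and sog, which binds the ligand, did not pass (0.55). In the EGF pathway the feedback inhibitors kek1 and aos (argos) were at least 10.1-fold and at least 9.28-fold higher, the receptor Egfr 8.55-fold and the ligand-processing S (Star) 6.20-fold. The ligand gene Krn (Keren) alone went the other way (2.44-fold lower), and the kinases rl and Dsor1 at the end of the cascade did not pass (0.32 and -0.18). Of 18 measured genes of the Hippo pathway and growth 11 were higher, against 48.2% of all named genes. The gene app alone was lower (1.96-fold). The upstream cadherins and their partners moved most, with d, ft (155-fold higher), fj and ds ahead. The core kinase genes wts and hpo were among the 6 that did not pass (differences of 0.14 and 0.43, genes outside the naming rule).

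Genes of cell division were higher in wing discs almost without exception. All 42 measured DNA replication genes were higher, as were 51 of 52 genes of mitosis and the cell cycle. The cyclin CycB read 11.59, 11.41 and 11.23 in wing discs, against 4.49, 4.15 and 4.28 in hindgut-tubule samples, and was 137-fold higher (adjusted p = 3.00e-10). The mitotic kinases polo and Cdk1 were 116-fold and 112-fold higher, and the securin pim at least 106-fold. The median over the mitosis list was 4.25 (3.89 floored), against 2.51 (2.41 floored) over the replication list, which includes the helicase subunits Mcm5 (27.5-fold), Mcm7 (18.5-fold), Mcm6 (17.7-fold) and Mcm2 (17.4-fold). The gene that did not pass was fzr, an activator of the anaphase-promoting complex that is needed for the switch to cycles without division (8.93, 8.79 and 8.75 in wing discs, 8.88, 8.65 and 8.59 in hindgut-tubule samples; difference 0.11).

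Chromatin regulators were higher in wing discs for 30 of 30 measured genes, with a median of 1.93. The GAGA factor gene Trl was 22.3-fold higher, the remodeller subunit Acf 13.0-fold higher, and the Polycomb group genes ph-p and Psc 10.2-fold and 8.16-fold higher. Ribosome biogenesis genes were higher for 29 of 33, with a median of 2.35 (2.23 floored). The nucleolar proteins nop5 and Fib (fibrillarin) were 11.5-fold and 9.15-fold higher, and Non1, Nop17l, Nmd3 and Polr1H did not pass (-0.45, -0.45, 0.12 and 0.16).

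The ribosomal proteins themselves differed little. Of 79 cytosolic ribosomal protein genes 39 were higher, 0 lower and 40 did not pass, with a median of 0.18. The share higher is near the 48.2% of all genes, and it turned with the scaling: centred on bright probe sets, 3 were higher and 10 lower, with a median of -0.052. The fit to the 6 arrays alone called 17 higher, and leaving out wing disc array 1 or 3 or hindgut-tubule array 3 gave 22, 25 and 24. Their levels lie near the top of the measured range in both organs, for example RpS2 at 14.53 ± 0.079 in wing discs and 13.94 ± 0.087 in hindgut-tubule samples (SD). Proteasome subunits were higher for 27 of 31 with a median of 0.62, and for 16 without hindgut-tubule array 2, 17 without wing disc array 2 and 18 with bright centring. The core subunits Prosalpha6 and Prosalpha7 were 1.93-fold and 1.87-fold higher and the lid subunit Rpn9 1.92-fold, so the whole set differed by less than 2-fold.

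**Figure D3:**
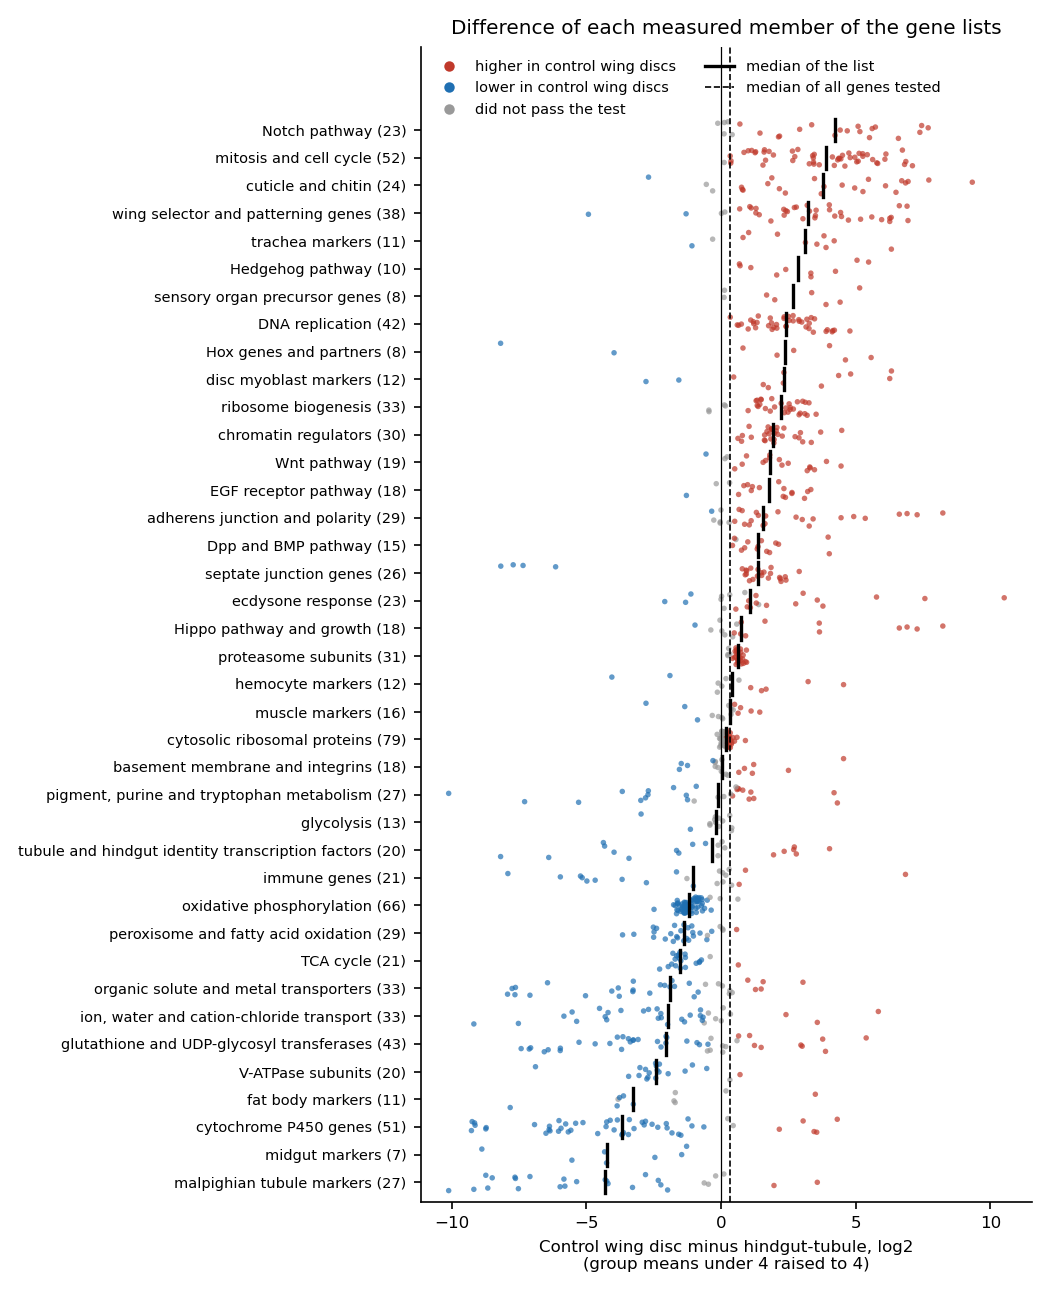
Difference of each measured member of 39 gene lists (1 dot per gene, with both group means raised to at least 4), wing disc minus hindgut-tubule on the log2 scale, with the number of members in brackets. Red dots were higher in control wing discs, blue dots lower and grey dots did not pass; the black bar is the list's median and the dashed line the floored median of all 7657 genes, 0.34. Notch, mitosis, cuticle and patterning genes lie far to the right, tubule, P450 and V-ATPase genes far to the left, and ribosomal protein genes close to 0.

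Cell junctions showed a split within a single structure. Septate junctions seal epithelia, and flies have a pleated form in ectodermal tissues such as discs and hindgut and a smooth form in the midgut and tubules. Of 26 measured septate junction genes 22 were higher in wing discs and 4 were lower. The 4 lower ones, Ssk, mesh, Tsp2A and hoka, are the known membrane components of the smooth form. Ssk (snakeskin) read 2.43, 2.33 and 2.38 in wing discs, against 12.13, 12.17 and 12.23 in hindgut-tubule samples, and Tsp2A, a tetraspanin, 2.17, 2.19 and 2.18 against 11.26, 11.18 and 11.62. They were at least 289.9-fold lower and at least 163-fold lower, with mesh at least 70.7-fold and hoka at least 211-fold lower, each at background on every wing disc array. All 4 thus passed the filter through hindgut-tubule samples alone, which fixed their direction. The genes of the pleated form were measured in both organs. Gli (Gliotactin), which sits where 3 cells meet, read 12.63, 12.50 and 12.77 in wing discs and 9.92, 9.72 and 9.57 in hindgut-tubule samples, and was 7.46-fold higher (adjusted p = 6.11e-08). The Na,K-ATPase beta subunit nrv2 was 5.31-fold higher, the thioester protein Mcr 5.21-fold higher and the neurexin Nrx-IV 4.68-fold higher. No overlap of the groups was seen for any of the 26 genes, against 82.3% of all named genes without overlap. Several probe sets of scrib disagreed in direction, and its brightest one is plotted.

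**Figure D4:**
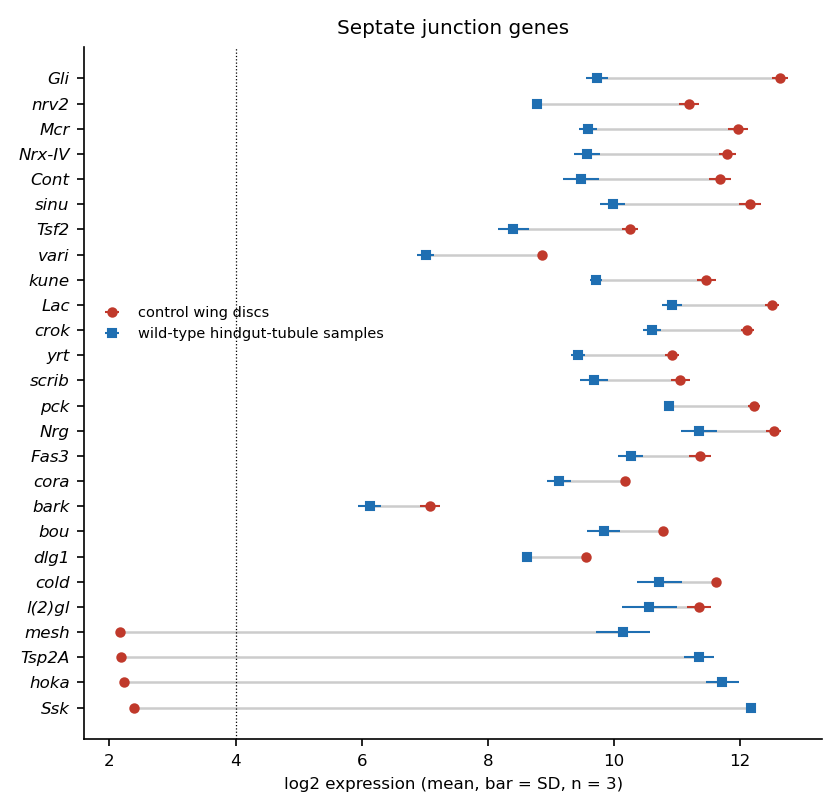
Log2 expression (x axis) of 26 septate junction genes, as the mean with its SD over 3 arrays, red circles for control wing discs and blue squares for hindgut-tubule samples; the dotted line marks 4. In the upper 22 rows the wing disc mean lies to the right, and in the lowest 4 rows, mesh, Tsp2A, hoka and Ssk, it lies at 2.18 to 2.40, far to the left of the hindgut-tubule mean.

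Of 29 measured genes of adherens junctions and polarity, 23 were higher in wing discs and jar, an unconventional myosin, was lower (1.27-fold; adjusted p up to 0.0597 without wing disc array 1 or hindgut-tubule array 1). The planar polarity cadherins d, ft and ds and their modifier fj led here too, while the apical polarity genes baz, sdt and Patj, the kinase par-1 and the myosin light chain sqh did not pass (-0.031, -0.036, 0.30, -0.27 and -0.0052). Basement membrane and integrin genes had no common direction, with 6 higher and 4 lower of 18 and a median of 0.017. Both shares were under those of all named genes (48.2% and 30.2%). The secreted protein gene Ppn (papilin) was 23.4-fold higher and the laminin wb (wing blister) at least 5.66-fold higher, while the perlecan trol was 2.93-fold lower by its brightest probe set, though higher by 0.82 by another, and the integrin subunits scb and if 2.79-fold and 2.37-fold lower.

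Genes of renal transport were mostly lower in wing discs. Of 27 measured Malpighian tubule markers 21 were lower, 2 higher and 4 did not pass, with a median of -5.36 (-4.30 floored). The inward rectifier potassium channel gene Irk2 read 2.19, 2.34 and 2.41 in wing discs, against 13.26, 13.47 and 12.81 in hindgut-tubule samples, and was at least 579.8-fold lower (adjusted p = 7.51e-13). The transporter gene salt (salty dog) was at least 405-fold lower, the P450 Cyp6a18 at least 426-fold lower and the alkaline phosphatase Alp4 at least 361-fold lower. Markers under 4 on every wing disc array, such as Irk2 and Cyp6a18, passed the filter through hindgut-tubule samples alone, which fixed their direction. Not every gene of tubule transport followed. The cation-chloride cotransporter Ncc69, which tubules use for potassium entry, read 8.23, 8.31 and 8.47 in wing discs, against 5.16, 4.31 and 4.82 in hindgut-tubule samples, and was 11.9-fold higher, and the diuretic hormone receptor Dh31-R was at least 3.90-fold higher. The related NKCC, the aquaporin Prip, the bestrophin Best2 and NtR did not pass (-0.63, -0.47, -0.20 and 0.10).

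Of 33 measured genes of ion and water transport 24 were lower and 3 higher, against 30.2% and 48.2% of all named genes. Besides Irk2 the lower ones included the potassium channel Irk3 (at least 184-fold), the proton exchanger Nha2 (at least 57.1-fold) and the entomoglyceroporin Eglp4 (46.2-fold). The higher ones were Ncc69, nrv2 and bib (big brain, at least 57.2-fold), an aquaporin relative that acts with Notch. Of 33 measured transporters of organic solutes, metals and ammonium 22 were lower (median -1.90, and -0.58 over all 47 on the array), with the organic anion transporters Oatp58Dc, Oatp58Db (at least 243-fold and at least 201-fold) and the zinc transporters Zip71B and ZnT35C (at least 217-fold and at least 199-fold) ahead. The 5 higher ones were JhI-21 (8.22-fold), an amino acid transporter subunit, mnd (2.95-fold), the zinc transporter foi (2.80-fold), MFS3 (2.42-fold) and path (1.99-fold), an amino acid transporter. The tubule hormone receptors were measured for 6 of 14. Lkr, the leucokinin receptor, was 63.0-fold lower, Dh44-R2 at least 55.7-fold lower and CapaR at least 9.77-fold lower, which all stimulate or restrain fluid secretion, and the lipid-mobilising receptor AkhR at least 3.09-fold lower; Dh31-R and the insulin receptor InR (1.74-fold) were higher. The call of InR ended without wing disc array 1 or 3 or hindgut-tubule array 2 (adjusted p up to 0.123).

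The V-ATPase was lower in wing discs for 18 of 20 measured subunit genes, with a median of -2.42; 13 further genes on the array, largely paralogs, lay under 4 on all 6 arrays, and over all 33 the median was -1.07. The membrane subunit Vha100-2 read 10.10, 9.75 and 9.97 in wing discs, against 12.86, 13.33 and 12.67 in hindgut-tubule samples, and was 8.08-fold lower (adjusted p = 4.86e-08). The rotor subunit Vha36-1 was 8.26-fold lower and the regulatory Vha44 10.8-fold lower. The paralog Vha100-5 read 2.67, 2.65 and 2.68 in wing discs, against 11.12, 10.56 and 10.99 in hindgut-tubule samples (at least 119-fold lower). Vha36-3 alone was higher (1.63-fold) and Vha68-1 did not pass (0.33). The subunit genes of the pump were present in wing discs, and the difference was of degree for all but a single paralog.

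Pigment, purine and tryptophan genes went both ways, with 10 higher and 12 lower of 27, against 48.2% and 30.2% of all named genes. The lower ones included Uro, the ABC transporters of pigment precursors bw (at least 157-fold) and st (at least 39.1-fold) and the phenylalanine hydroxylase Hn (at least 12.7-fold). The transporter w (white), the partner that bw and st share, went the other way and was 19.9-fold higher. It read 12.08, 10.82 and 11.75 in wing discs, against 7.39, 6.47 and 7.85 in hindgut-tubule samples. The discs carry the nub-Gal4 driver and the hindgut-tubule samples do not, so organ and genotype cannot be told apart for w. Pu, which starts pteridine synthesis, was 18.3-fold higher, rb (ruby), a subunit of a sorting complex, 2.32-fold higher, and the pteridine enzyme pr 2.15-fold higher. The 5 that did not pass were ras, mal, dor, car and kar (0.55, 0.36, 0.10, -0.11 and -1.0).

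Detoxification enzymes were lower in wing discs for 44 of 51 measured cytochrome P450 genes, with a median of -4.47 (-3.68 floored), while 24 of the 80 P450 genes on the array were under 4 on all 6 arrays, and the median over all 80 was -2.48. Cyp6a8 read 2.37, 2.23 and 2.16 in wing discs, against 13.32, 13.12 and 13.36 in hindgut-tubule samples, and was at least 617-fold lower. Cyp12d1-d was at least 606-fold lower, Cyp12a4 at least 569-fold lower and Cyp6w1 at least 562-fold lower. These genes and others under 4 on every wing disc array passed the filter through hindgut-tubule samples alone, which fixed their direction. The P450 genes on the wing side included enzymes of other pathways: spok (spookier), of ecdysone synthesis, was at least 19.9-fold higher, Cyp18a1, which inactivates ecdysone, at least 8.25-fold higher, and Cyp4g1, which makes cuticle hydrocarbons, at least 11.7-fold higher. On the wing disc arrays spok read 9.25, 6.98 and 8.70 and phtm (phantom), which also acts in ecdysone synthesis in the prothoracic gland and was left out by the filter, 6.29, 3.00 and 5.84, with array 2 the lowest for both and the hindgut-tubule arrays under 3. The part of gland tissue in these values was not tested. Cyp4p2 was at least 10.9-fold higher, and Cyp6v1 and Cyp310a1 did not pass (0.45 and 0.25). Of 43 glutathione and UDP-glycosyl transferases 27 were lower and 9 higher (median -2.23, and -0.50 over all 68 on the array). GstE7, GstE6 and GstE10 were at least 172-fold, at least 139.5-fold and at least 134-fold lower and GstD2 94.7-fold lower, against Ugt302K1, GstD3, Ugt50B3 and GstO1 on the wing side (at least 41.8-fold, 14.7-fold, at least 13.7-fold and 8.05-fold higher). Near-identical members of these families may share probes, and a single family member is less certain than the family's count.

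Mitochondrial energy metabolism was lower in wing discs. Of 66 measured oxidative phosphorylation genes 63 were lower and 0 higher (median -1.18), and of 21 TCA cycle genes 19 were lower and 1 higher (-1.51). The complex I subunit ND-B14.5A was 5.62-fold lower, the complex III subunit RFeSP 3.39-fold lower and the succinate dehydrogenase subunit SdhB 3.26-fold lower. The 3 that did not pass were the ATP synthase genes ATPsynC, ATPsynG and ATPsynepsilonL (-0.032, -0.41 and 0.62). The citrate synthase kdn read 10.25, 10.42 and 10.50 in wing discs, against 12.32, 13.22 and 12.48 in hindgut-tubule samples, and was 4.86-fold lower (adjusted p = 3.02e-05). Idh, which makes NADPH outside the cycle proper, was the 1 higher gene (1.56-fold), and Fum1 did not pass (-0.41). The call of Idh ended without wing disc array 1 or 2 or hindgut-tubule array 1 or 3 (adjusted p up to 0.0986). Peroxisome and fatty acid oxidation genes were lower for 24 of 29, with a median of -1.38, led by the acyl-CoA oxidases Acox57D-p and Acox57D-d (12.6-fold and at least 9.44-fold); Mtpalpha alone was higher (1.49-fold).

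Glycolysis did not show this difference: 2 of 13 genes were lower, 0 higher and 11 did not pass, with a median of -0.21. The 2 were Gpdh1, which makes glycerol phosphate and was 7.84-fold lower, and Pgi (2.20-fold). With bright centring 6 of the 13 were lower, and with array weights 5. Most glycolytic genes thus could not be told apart between the organs at this spread.

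Most cuticle and chitin genes were higher in wing discs. Of 24 measured cuticle and chitin genes 21 were higher and 1 lower, with a median of 3.77; without hindgut-tubule array 2 the counts were 21 and 1 with a median of 4.34, and over all 31 genes of the list on the array, with no filter, the median was 2.16. Lcp9, Lcp3 and Lcp1 were at least 209.6-fold, 123-fold and 115-fold higher. The hindgut-tubule arrays disagreed over several of these genes: Lcp3 read 15.13, 15.08 and 14.77 in wing discs, against 3.50, 12.69 and 7.96 in hindgut-tubule samples. The gene mmy, which makes the sugar nucleotide used for chitin, was the exception at 6.47-fold lower, and serp and obst-E did not pass (-0.31 and -0.55). Among 23 ecdysone response genes 14 were higher and 3 lower. The higher count was 10 without wing disc array 1 or 2, 11 without wing disc array 3, without hindgut-tubule array 2 or with bright centring, and 10 with no filter, so its share lay near the 48.2% of all genes in those fits. The evagination genes ImpE2, ImpE1 and ImpE3 led, with at least 189-fold for ImpE1 and 54.5-fold for ImpE3, and the nuclear receptor Eip78C was 13.7-fold higher. The transporter E23 was 4.26-fold lower, the receptor ftz-f1 2.49-fold lower and Cth 2.18-fold lower. Without wing disc array 1 or 2 or hindgut-tubule array 1 or 3, E23 was no longer called (adjusted p up to 0.108).

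Immune genes had 3 higher and 10 lower of 21, against 48.2% and 30.2% of all named genes, and 8 did not pass. The median was -1.03, and -0.59 over all 30 on the array. The antimicrobial peptide genes Mtk (metchnikowin), Drs (drosomycin) and AttD were at least 242-fold, 62.6-fold and at least 35.7-fold lower in wing discs, and the drosomycin relative Drsl2 at least 37.3-fold lower. AttD read 2.22, 2.25 and 2.24 in wing discs, against 9.62, 6.54 and 11.31 in hindgut-tubule samples, with array 3 the highest. AttA read 6.48, 4.19 and 5.42 in wing discs, against 5.33, 4.24 and 10.32 in hindgut-tubule samples, and did not pass (difference -1.27), with array 3 alone high. The drosomycin relative Drsl5 went the other way (at least 115-fold higher), as did tub and cact of the Toll pathway (1.87-fold and 1.59-fold). The call of cact ended without any wing disc array or hindgut-tubule array 1 or 2 (adjusted p up to 0.119). Without hindgut-tubule array 3 the counts were 3 higher and 10 lower, with a median of -0.072 in place of -1.03.

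Markers of other cells were read on each array, and their part in the results above was not tested. On the wing disc arrays muscle markers, given below, had a higher summed level than fat body markers. Fat body is the storage organ that lies beside both tissues. Its 11 markers were above 4 on every array, and the presence of the tissue was not tested. Their summed level was 13.34 to 15.19 on the wing disc arrays and 16.51 to 17.53 on the hindgut-tubule arrays (log2 of the linear sum). Of the 11, 1 was higher, 5 lower and 5 not passed, against 48.2% higher and 30.2% lower of all named genes. The larval serum protein Lsp1alpha read 5.70, 4.38 and 5.14 in wing discs, against 12.24, 14.01 and 12.46 in hindgut-tubule samples (228-fold lower), while Lsp2 did not pass at 12.27, 11.30 and 13.18 against 13.81, 14.69 and 13.37. The other lower ones were Lsp1beta (14.5-fold), the lipoprotein apolpp (13.6-fold), Cyp4e2 (12.3-fold) and Lsp1gamma (9.57-fold), and Obp99a was 11.3-fold higher; Fbp1, Fbp2, Obp99b and the collagen Col4a1 did not pass (-1.75, -3.82, -1.70 and 0.18). Without wing disc array 2 the calls of Lsp1beta, Lsp1gamma and apolpp ended (adjusted p up to 0.0562, 0.154 and 0.0761 over all arrays left out), that of Lsp1gamma also without wing disc array 1 or 3 or hindgut-tubule array 2 or 3, and that of apolpp without hindgut-tubule array 2 or 3. The lower count came to 2 without wing disc array 2, to 3 without hindgut-tubule array 2 or 3, and to 8 in the fit to the 6 arrays alone.

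Salivary glue transcripts were highest on wing disc array 3 and next on array 1, and the presence of gland tissue was not tested. The glue genes Sgs3 and Sgs5, named after their values were seen, were left out of the test by the filter. Sgs3 read 7.88, 2.32 and 14.46 on wing disc arrays 1 to 3, against 2.21, 2.20 and 2.30 on the hindgut-tubule arrays, and Sgs5 6.29, 2.24 and 14.07 against 2.20, 2.20 and 2.22. The markers sage, ng1 and ng2, named after their values were seen, were left out as well. On the wing disc arrays sage read 7.65, 3.75 and 8.34, against 2.91, 2.89 and 2.87 in hindgut-tubule samples. Both ng1 and ng2 were under 4 on all 6 arrays. The summed level of 12 salivary gland markers was 11.60, 11.20 and 16.76 on the wing disc arrays, against 10.92 to 11.45 on the hindgut-tubule arrays. Of the 4 that could be tested, Sgs7 (at least 49.3-fold) and CrebA (1.97-fold), a secretory regulator also used elsewhere, were higher, fkh was lower as above, and Sgs8 did not pass (4.09). The call of Sgs7 ended without wing disc array 1 or 3 or hindgut-tubule array 1 or 2 (adjusted p up to 0.142), which left 1 higher gene.

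Midgut markers were read as well, without genes such as gammaTry, Amy-p and LysB, which had no probe set of their own. Of 33 midgut markers 24 were under 4 on all 6 arrays, and of the 7 tested 7 were lower in wing discs, led by the lysozyme gene LysX (2.17, 2.09 and 2.16 in wing discs, 12.92, 12.63 and 13.09 in hindgut-tubule samples), zetaTry (at least 46.5-fold), GATAe and alphaTry (at least 19.1-fold). All of the 7 except Npc2b were under 4 on every wing disc array. They passed the filter through hindgut-tubule samples alone, which fixed their direction. The summed level of the list was 9.69 to 10.59 in wing discs and 13.22 to 13.60 in hindgut-tubule samples. Muscle markers lay at 16.68 to 17.14 in wing discs and 16.61 to 16.72 in hindgut-tubule samples. Of 16 tested, 5 were higher and 3 lower, both shares under those of all named genes (48.2% and 30.2%). The troponin C gene TpnC73F was 2.71-fold higher. The transcription factor Mef2 was 6.91-fold lower by its brightest probe set, though higher by 1.14 by another. The higher count of muscle markers was 3 without wing disc array 2 or hindgut-tubule array 1, and 2 with bright centring. Hemocyte markers lay at 12.78 to 12.95 in wing discs and 11.86 to 12.09 in hindgut-tubule samples. Of 12 tested, 5 were higher and 2 lower, again both under the shares of all named genes. The higher ones were Ppn, ush (9.39-fold), NimC1 (at least 3.18-fold), He (2.83-fold) and eater (2.14-fold, outside the naming rule). The lower ones were NimB2 (16.6-fold) and the phagocytic receptor crq (3.73-fold). The call of eater ended without wing disc array 1 or 2 or hindgut-tubule array 2 (adjusted p up to 0.102). Hml, Pxn, srp, PPO2 and Col4a1 did not pass (-0.14, 0.028, -0.11, 0.66 and 0.18).

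**Figure D5:**
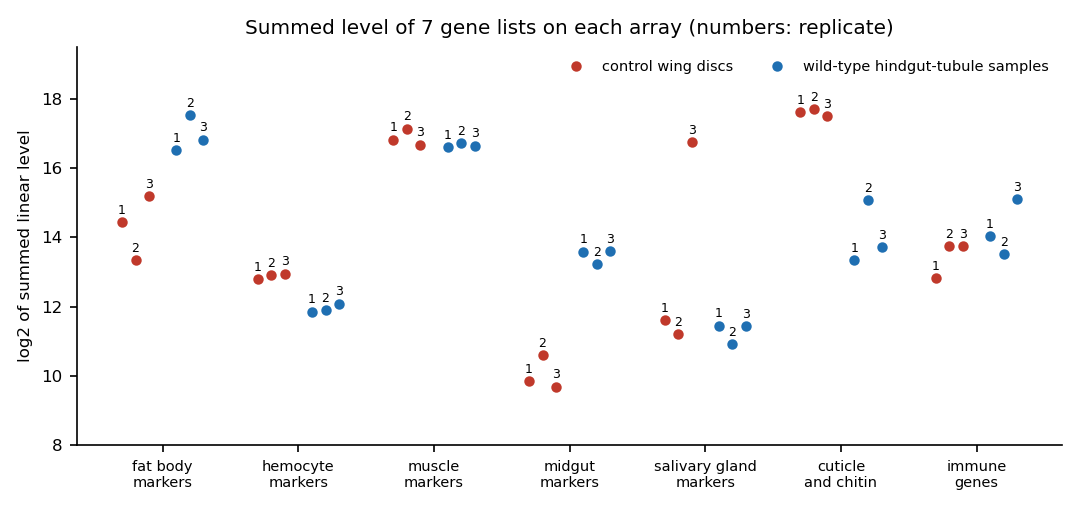
Summed level of 7 gene lists on each array (log2 of the sum of linear values, y axis), red for control wing discs and blue for hindgut-tubule samples, with the replicate number above each dot. Salivary gland markers stand at 16.76 on wing disc array 3, cuticle genes are highest among hindgut-tubule samples on array 2 and immune genes on array 3, and fat body markers are higher on every hindgut-tubule array than on every wing disc array.

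Markers of cells that belong to the wing disc besides its epithelium were also read, and the presence of these cells was not tested. Of 12 markers of the myoblasts attached to the notum 10 were higher in wing discs, among them rst (at least 80.1-fold), Ama (28.0-fold) and stumps (20.6-fold) besides vg, and ct and Mef2 were lower. Trachea, the air tubes that join the disc, gave 9 of 11 higher, led by the trachea selector trh (at least 79.9-fold), the snail-type gene esg (18.4-fold), the POU gene vvl (14.9-fold) and the chitin-binding Gasp (14.1-fold); bnl, the FGF that guides tracheal branches, was 2.12-fold lower (adjusted p up to 0.0765 without wing disc array 1 or hindgut-tubule array 1 or 2), and serp did not pass. The trachea marker btl was left out by the filter (3.84, 3.78 and 4.72 in wing discs, 2.25, 2.32 and 2.20 in hindgut-tubule samples). Sensory organ precursor genes were higher for 6 of 8 measured. Among them sca was at least 35.4-fold, the proneural genes sc and ac at least 21.4-fold and at least 14.9-fold, and dpn at least 10.3-fold higher. All 6 were under 4 in hindgut-tubule samples and passed the filter through wing discs alone, which fixed their direction. Only neur and insc were measured in both organs, and they did not pass (0.13 for insc). The genes ase, ato, amos, pros, cato and tap were left out by the filter. Of 19 neuron and glia markers 12 were under 4 on all 6 arrays. Of 7 tested 2 were higher, nrv2 and elav (2.62-fold), and 2 lower, Syt1 (at least 3.39-fold) and moody (2.21-fold). Both shares were under those of all named genes (48.2% and 30.2%).

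The same organs were measured once more on the other 6 arrays, in discs with UAS-MiT and in mutant hindgut-tubule samples, and each pair of groups was fitted to its own 6 arrays. The control pair had 3995 (47.5%) higher and 2490 (29.6%) lower probe sets of 8410, and the manipulated pair 3810 (45.3%) and 2350 (27.9%). In both pairs 3366 were higher and 2015 lower, which is 83.0% of the calls of the control pair and 87.4% of those of the manipulated pair, and 72 were called in opposite directions. Of 6485 control pair calls 6225 had the same sign in the manipulated pair. The difference between the 2 organ contrasts, tested in the fit of all 12 arrays, was called for 541 probe sets higher and 662 lower in the control pair (14.3%).

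Of the lists, the V-ATPase had the largest share of members for which the pairs differed. Its median was -2.42 in the control pair and -0.030 in the manipulated pair, and the difference was called for 15 of 20 subunits. Oxidative phosphorylation had a median of -1.18 in the control pair and -0.45 in the manipulated pair (11 of 66 called), and the TCA cycle -1.51 and -0.84 (8 of 21 called). For septate junctions the medians were 1.36 in both, with 22 higher and 4 lower each time, and for DNA replication 2.51 and 2.31, with 42 of 42 higher each time. Cytochrome P450 genes had medians of -4.47 and -4.36. Single members differed all the same, with 5 of 51 called higher and 10 lower in the control pair. For Malpighian tubule markers these counts were 6 and 5 of 27, and for ion and water transport 6 and 7 of 33. Over all probe sets 14.3% were called.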

How the data were processed

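Expression was measured on 12 Affymetrix Drosophila_2 arrays (1 sample each), of which 6 were compared. The deposited values are on the log2 scale, and GCRMA is named per the submitters' processing notes; its version and the genome build are not given in the sources used here. In a second deposited table only gene symbols and transcript accessions were read, and its 12 columns of per-sample values were not used.

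Of 18952 probe sets 183 controls were left out. Names came from accessions and symbols in the files through a RefSeq gene table (Release 6, for names and gene order only): 14509 probe sets named a single gene (13967 through an accession, 346 through a symbol and 196 with only the name in the file), 275 named several and 3985 none. The brightest probe set stood for a gene, and 371 genes had more than 1 probe set tested, and for 23 these were called both higher and lower.

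Groups and replicate numbers were taken from the titles. limma 3.58.1 in R 4.3.3 (lmFit, eBayes) fitted all 12 arrays with 1 mean per group (8 residual and 2.19 prior degrees of freedom) and was tested on simulated data. Other fits, filters, scalings and arrays left out were tried as alternatives. The number of arrays limits the precision.

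The 42 gene lists and the rule for naming genes were chosen with earlier results of these data known, so lists are described by counts and medians without a test. Named were the 15 largest differences each way, up to 4 called members of a list each way with those not passed where 5 or fewer, and 16 organ markers; other names are said to be chosen after their values were seen. Another 47 names written for the lists had no probe set with that gene alone, and 1 gene that the rule names is not reported here.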

Additional observations from a re-analysis of the deposited data

Results flagged for a closer look

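The difference between the organs was measured in the control pair and in the manipulated pair, and genes named above are listed here where the 2 differences were themselves told apart (limma, 12 arrays, adjusted p at or under 0.05 over 8410 probe sets, of which 14.3% were called). Each value is the control pair's log2 difference minus the manipulated pair's, so a positive one means a difference further towards the wing disc in the control pair.

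Mitf differed by 1.41 in the control pair and 3.70 in the manipulated pair (difference -2.29, SE 0.28). For V-ATPase subunits the values were -3.28 for Vha100-2, -2.85 for Vha44 and -2.27 for Vha36-1. For Vha100-2 the organ difference was -3.01 in the control pair and 0.27 in the manipulated pair. In respiration the values were -1.27 for ND-B14.5A, -1.15 for RFeSP and -1.40 for kdn, and for ATPsynepsilonL -4.49, with 0.62 in the control pair and 5.11 in the manipulated pair. Among enzymes of detoxification and lipid breakdown they were -9.31 for Cyp12d1-d, 3.99 for Cyp4p2, 3.41 for GstD3, 3.32 for Ugt302K1 and -1.10 for Acox57D-d. Cyp12d1-d was -10.39 in the control pair and -1.08 in the manipulated pair.

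Transporters and receptors gave 4.23 for path, 2.62 for NKCC, 1.93 for Prip, -1.23 for MFS3, -0.71 for Oatp58Db, -1.16 for Dh44-R2 and 0.72 for Dh31-R. The amino acid transporter path was 0.99 in the control pair and -3.24 in the manipulated pair. Among the leading hindgut-tubule genes the values were -5.67 for CG6409, -2.47 for CG18473, -1.03 for CG14963, 0.55 for Mur18B and 1.13 for LysX, and among pigment genes -3.53 for Hn and 1.12 for pr. The antimicrobial peptide gene AttD was -6.92 in the control pair and -0.11 in the manipulated pair (-6.81).

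On the wing disc side y was 10.99 in the control pair and 8.04 in the manipulated pair (2.95), ImpE2 11.91 in the control pair and 10.30 in the manipulated pair (1.61) and vg 7.62 in the control pair and 6.80 in the manipulated pair (0.82). The other values were 9.18 for Lcp9, 0.43 for Tom, 2.03 for Cdk1, 0.64 for Fib, 4.12 for spok, 5.13 for Eip78C, -2.89 for ftz-f1 and 0.85 for TpnC73F. Identity and trachea genes gave -2.01 for tup, 0.84 for drm, -1.27 for ct, -1.06 for neur, -1.45 for vvl, -1.86 for bnl and -1.08 for serp, and genes of polarity and adhesion 1.07 for scb, -0.84 for par-1 and -0.94 for sdt. The hemocyte markers Hml and He were -0.14 in the control pair and 2.53 in the manipulated pair for Hml (-2.67) and 1.50 in the control pair and 3.62 in the manipulated pair for He (-2.12).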

How the results depend on the processing

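The counts of probe sets stayed within 1.5 times under every alternative tried: 3583 to 4446 higher and 2374 to 3010 lower. The lowest higher count and the highest lower count came with bright centring, where 54.3% of calls were higher, against 61.7%. Array weights, whose estimate stopped before its tolerance was reached, gave 4446 and 2863. Replicate numbers did not pair the samples (correlations of deviations of 0.0095, 0.085 and 0.18), and the replicate block gave 4086 and 2541. Of 225 named and called genes 211 were called under every alternative in which they were tested; sgg turned to 0.70 with the mean of its probe sets.

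Of the lists, cytosolic ribosomal proteins had 17 higher in the fit to 6 arrays, 61 without a filter, 61 with trend and robust options, 3 with bright centring (median -0.052) and 22 to 33 with 1 array left out; the cause was not tested. Proteasome subunits had 16 to 26 higher with 1 array left out. Fat body markers had 8 lower in the fit to 6 arrays, 2 without a filter and 2 to 5 with 1 array left out. Glycolysis had 6 lower with bright centring and 5 with array weights, muscle markers 2 higher with bright centring and 3 to 7 with 1 array left out. The filter at log2 6 tested fewer genes and left 3 hemocyte and 1 salivary gland marker higher, where the salivary list had a median of -3.27; that list had 1 higher with array weights and 1 to 2 with 1 array left out. With no filter the medians over all members on the array were nearer 0: cytochrome P450 -2.48, V-ATPase -1.07, cuticle and chitin 2.16, EGF receptor pathway 1.16, immune -0.59 and glutathione and UDP-glycosyl transferases -0.50, against -4.47, -2.42, 3.77, 1.78, -1.03 and -2.23. Of the control pair's calls, 83.0% were shared by the manipulated pair with each pair fitted alone, 84.3% with both taken from the fit of all 12 arrays and 83.7% with the filter at log2 6. Probe sets under the level of 4 on all 6 arrays, 9814 of 18769, are limited by signal over background, and a gene there cannot be called absent.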

Other observations

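Gene families outside the lists were counted by name after the values had been seen, so these counts are descriptions. Subunits of large nuclear complexes were higher in wing discs together: 20 of 20 measured nucleoporins (Nup genes, median log2 difference 1.81), 22 of 24 Mediator subunits (1.14), 26 of 28 RNA polymerase subunits (1.44), 13 of 14 TBP-associated factors (1.03), 10 of 11 Integrator subunits (0.96) and 12 of 12 pre-mRNA processing factors (1.46), against 48.2% of all named genes. The chaperonin that folds actin and tubulin had 8 of 8 CCT subunits higher (1.22), and augmin, which branches spindle microtubules, 6 of 6 (3.33). Translation initiation factors had 19 of 34 higher, 1 lower and a median of 0.38. Of 69 measured mitochondrial ribosomal proteins 3 were higher, 10 lower and 56 did not pass (median 0.029).

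Families of enzymes, lipid carriers and metal binding were lower in wing discs: 10 of 11 alkaline phosphatases (Alp genes, median -6.15), 7 of 8 alpha esterases (-4.57), 4 of 4 NPC2 proteins (-3.02), 4 of 5 acyl-CoA binding proteins (-4.98) and 4 of 4 metallothioneins (-6.72), against 30.2% of all named genes. Peptidoglycan recognition proteins, which sense bacteria, were lower for 7 of 8 (-3.53). Odorant-binding proteins were higher in wing discs for 9 of 12 (4.57) and Yellow family genes for 9 of 11 (2.60). Rab GTPases and Vps sorting proteins split, with 4 higher and 10 lower of 22 and of 27, against 48.2% and 30.2% of all genes.

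Some neighbouring genes shared a large difference. Taking measured named genes in their chromosomal order, 14 runs of at least 4 neighbours differed at least 8-fold in 1 direction, 4 of them higher and 10 lower in wing discs. The runs on the wing side were E(spl)mbeta-HLH to E(spl)m4-BFM on 3R, Lcp1 to Lcp4 on 2R, y, ac, sc and Cyp4g1 on X, and lncRNA:CR33938, Ama, Scr and Antp on 3R. On the hindgut-tubule side they included GstE3 to GstE9 and Cyp6a23 to Cyp6a8 on 2R, alpha-Est5 to alpha-Est1 on 3R, and CG13707, hoka, Rh50, CG15212 and CG15213 on 3L. Members of gene clusters can be similar in sequence, and probes that read more than 1 of them were not tested for.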
